A study of Mus musculus with 18 samples.

Results

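The genes of the proteins of the cytosolic ribosome were followed in 3 organs of mice fed a ketogenic diet or chow. Members were taken by symbol: Rpl or Rps followed by a number and at most a final a, l or x, together with Rplp0, Rplp1, Rplp2 and Rpsa. This gave 81 of the 22609 genes counted, of which 49 encode proteins of the large subunit and 32 proteins of the small subunit. They lie on 19 chromosomes, and their annotated exons span 327 to 5134 bases with a median of 710. The mice were wild type on the C57BL/6J background in every group, with no other agent named. Feeding began when they were 4 weeks old and lasted 21 days, either on standard chow or on a ketogenic diet in which fat made up 90%, protein 9.7% and carbohydrate 0.3%. Stranded mRNA libraries were made from RNA with an integrity number above 4, with 3 replicates for each organ and diet. The 18 libraries held 16135276 to 23835383 counts each.

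A ribosome is built from ribosomal RNA and one copy of nearly every ribosomal protein, so cells make these proteins in matched amounts. Their mRNAs are short and abundant and begin with a run of pyrimidines at the cap, through which the kinase mTOR and the RNA-binding protein Larp1 set their translation and stability. Surplus ribosomal proteins are degraded, and a few of them bind the ubiquitin ligase Mdm2 and thereby raise p53. In the adult liver, ribosome content is known to follow feeding and fasting.

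Some libraries stood apart. Ketogenic replicates 1 and 2 of the heart had a median chi-square per gene of 0.669 and those of the liver 0.708, where sampling alone gives 0.455 and the other 16 pairs within groups gave 1.28 to 4.77. Each of these 2 pairs was counted as 1 sample in means and SDs, so n is 2 for the ketogenic heart and liver. Over the ribosomal protein genes alone the heart pair had a median of 0.467 and the liver pair 2.13, where the other 16 pairs ran from 1.997 to 90.5, so within the family the liver pair was not closer than every other pair. Fits used all 6 libraries of an organ unless stated. Chow heart replicate 3 had 12090 CPM (a count scaled to the size of its library, within the organ) of atrial markers, against at most 132 in the other heart libraries, and 158.9 CPM of adipocyte markers, against at most 2.01. Markers of each organ were abundant in that organ. The labels call the libraries biological replicates, the near-identical pairs included, but no source used here ties a replicate to an animal. P-values therefore measure the spread between these libraries. Reads that map to several places were shared in fractions: 79 of the 81 genes had a count that was not whole in some library. Among annotated GENCODE transcripts, 28 genes had a near-identical copy of their coding sequence, at most 32 copies. A copy had an identity of at least 95% over at least 80% of that sequence. The genome itself was not searched, so the other 53 genes need not be free of copies. A change in one of these genes can therefore be spread over its copies. Rpl34 had 0 copies by this search, yet it and Rpl34-ps1, a copy in the annotation of the counts, had nearly the same counts in every library.

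Start-site sequence was available for 60 of the 81 genes in the RefSeq table of promoters on GRCm38.p6. The pyrimidine runs CTTTCC and CTCTTTC, which can overlap each other, and the run CTTTTC were looked for on the sense strand from 50 bases before to 50 after the start. At least 1 of them was present in 31 of the 60 genes (51.7%), against 10.3% of all 27025 genes in the table. The motif CCGGAAG, bound by ETS factors, was looked for on both strands of the 300 bases of each entry and was found in 25 of the 60 (41.7%), against 9.93% of all genes. TATAAA, looked for only on the sense strand of the 50 bases before the start, was in 0 of the 60, against 3.15% of all. Shown here, each from 80 bases before to 20 after the start and 5′ to 3′ on the gene's strand, are 3 genes whose mRNA rose in the liver (Rpl41 has the highest level per length averaged over the 6 groups), 3 whose mRNA fell there, and Rpl3l, the muscle paralog of Rpl3, with these motifs in capitals. On GRCm38.p6 the windows are chr3:90213629-90213728 (minus strand) for Rps27, chr10:23787190-23787289 (minus) for Rps12, chr10:128549149-128549248 (minus) for Rpl41, chr7:4792885-4792984 (plus) for Rpl28, chr9:64173307-64173406 (plus) for Rpl4, chr10:128626487-128626586 (minus) for Rps26 and chr17:24727746-24727845 (plus) for the first of the Rpl3l starts.
Rps27: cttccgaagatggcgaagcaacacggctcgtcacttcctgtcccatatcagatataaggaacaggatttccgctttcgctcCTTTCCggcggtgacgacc
Rps12: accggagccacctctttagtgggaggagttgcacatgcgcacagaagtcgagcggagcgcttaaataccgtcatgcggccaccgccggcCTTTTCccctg
Rpl41: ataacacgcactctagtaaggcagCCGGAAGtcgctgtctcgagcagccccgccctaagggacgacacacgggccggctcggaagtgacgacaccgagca
Rpl28: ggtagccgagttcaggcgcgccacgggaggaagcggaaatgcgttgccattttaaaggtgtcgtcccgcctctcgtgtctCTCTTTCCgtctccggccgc
Rpl4: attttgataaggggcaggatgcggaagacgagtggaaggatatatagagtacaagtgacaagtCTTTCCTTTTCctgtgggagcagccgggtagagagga
Rps26: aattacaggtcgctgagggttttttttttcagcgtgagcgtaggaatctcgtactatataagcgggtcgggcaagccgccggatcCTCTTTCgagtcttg
Rpl3l: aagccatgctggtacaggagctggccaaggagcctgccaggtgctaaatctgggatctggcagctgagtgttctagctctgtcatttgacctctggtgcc
A pyrimidine run was present in 25 of the 44 matched genes that rose in the liver, in 3 of the 5 matched genes that fell (Rpl28, Rpl4 and Rps26, not Rpl23 or Rps4x) and in 2 of the 8 matched genes that did not pass. Neither Rpl41 nor Rpl3l carried one of the 3 runs.

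In the liver most ribosomal protein mRNAs were higher on the ketogenic diet. Of 78 genes tested, 55 rose, 6 fell and 17 did not pass, where 47.6% of all genes passed in one direction or the other (edgeR quasi-likelihood test, Benjamini-Hochberg adjusted p under 0.05 over all 12947 genes tested). Of all genes tested in the liver, 24.3% passed as higher and 23.3% as lower. The median log2 fold change of the 78 genes was 0.60, against 0.00 for all genes. Their summed level was 9055, 8966 and 8660 CPM in the chow libraries and 13882, 14262 and 11643 CPM in the ketogenic ones. The 2 diets did not overlap, and ketogenic replicate 3 was the lowest of its group. Gene by gene, the libraries of the 2 diets did not overlap in 53 genes that were higher and 7 that were lower (background 29.1% and 28.1%). In whole tissue, fewer cells of a type and less RNA per cell cannot be told apart.

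**Figure D1:**
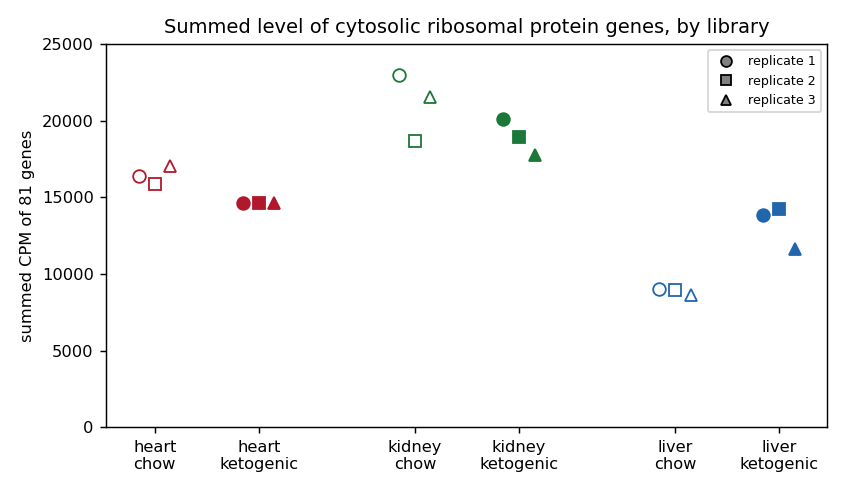
Summed CPM of the 81 genes in each of the 18 libraries, by organ and diet; open symbols are chow, filled symbols ketogenic, and the shape gives the replicate. The 3 ketogenic livers (11643 to 14262 CPM) lie above the 3 chow livers (8660 to 9055 CPM), the 3 ketogenic hearts (14625 to 14654 CPM) lie below the 3 chow hearts (15902 to 17060 CPM), and the kidney groups overlap.

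The genes of the small subunit moved further in the liver than those of the large subunit. Among small-subunit genes 26 of 32 rose and 2 fell, with a median of 0.80; among large-subunit genes 29 of 46 rose and 4 fell, with a median of 0.36. The difference between the subunits was not tested.

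Rps27 (chr3:90016589-90017570 on mm9, the build of the counts), a zinc-finger protein of the small subunit, was among the 5 genes with the smallest p-values. It measured 46.3, 47.4 and 43.3 CPM in the chow libraries and 143.5, 156.6 and 120.3 CPM in the ketogenic ones, all ketogenic above all chow. Its mean was 45.6 ± 2.13 (SD, n = 3) on chow and 135 ± 21.0 (SD, n = 2) on the ketogenic diet. The log2 fold change was 1.62 ± 0.10 (SE, edgeR adjusted p = 7.5e-07). Its paralog Rps27l (chr9:66793925-66797316), a p53 target that can replace Rps27 in the ribosome, went from 59.3, 60.6 and 54.4 CPM to 176.9, 174.2 and 147.2 CPM. That is a log2 fold change of 1.52 ± 0.09 (SE, edgeR adjusted p = 6.6e-07), so both paralogs rose together there.

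Rps12 (chr10:23504989-23507015), a small-subunit protein of the head of that subunit, measured 45.9, 49.99 and 44.2 CPM on chow and 147.8, 159.6 and 118.5 CPM on the ketogenic diet. The log2 fold change was 1.60 ± 0.11 (SE, edgeR adjusted p = 1.3e-06), but 23 near-identical copies make its count uncertain. Rps25 (chr9:44215797-44218489), which viral internal ribosome entry sites need, rose from 94.97, 97.7 and 90.9 to 302.4, 299.6 and 242.4 CPM (log2 1.57 ± 0.10, SE). In both genes the 3 chow libraries lay close together and below all 3 ketogenic libraries. Rpl34 (chr3:130429749-130433226) went from 46.8, 53.1 and 46.8 to 166.5, 171.8 and 124.6 CPM (log2 1.66 ± 0.12, SE). Rpl9 (chr5:65779603-65782670) went from 57.1, 68.2 and 55.0 to 186.5, 192.8 and 146.2 CPM (log2 1.54 ± 0.12, SE). Rpl41 (chr10:127985166-127986224), the shortest ribosomal protein, went from 142.9, 174.0 and 128.5 to 459.1, 490.8 and 341.8 CPM (log2 1.54 ± 0.16, SE). Rps24 and Rpl17, named after their values were seen, had the highest log2 fold changes, 1.73 each. Counts of Rpl34 cannot be told from those of its annotated copy.

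The 6 genes that fell in the liver fell by less. Rpl28 (chr7:4744567-4746149), a large-subunit protein found in eukaryotes, measured 186.8, 179.2 and 176.9 CPM on chow and 126.4, 133.3 and 123.7 CPM on the ketogenic diet. The groups did not overlap, and the log2 fold change was -0.50 ± 0.07 (SE, edgeR adjusted p = 0.00022). Rpl4 (chr9:64021194-64026369), which lines the exit tunnel of the nascent chain, measured 392.6, 396.0 and 409.0 CPM on chow and 292.0, 293.8 and 295.8 CPM on the ketogenic diet (log2 -0.44 ± 0.07, SE). Rps26 (chr10:128061585-128063562), which contacts mRNA at the exit channel, went from 117.0, 103.0 and 111.1 to 85.6, 82.0 and 82.3 CPM (log2 -0.41 ± 0.08, SE). For all 3 genes every chow library was above every ketogenic one. Rpl29 had a log2 fold change of -0.42, Rpl23 of -0.32 and Rps4x, the X-linked form of a small-subunit protein, of -0.27. Rpl23 did not pass without ketogenic replicate 1 of the liver (log2 -0.26, adjusted p = 0.069).

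**Figure D2:**
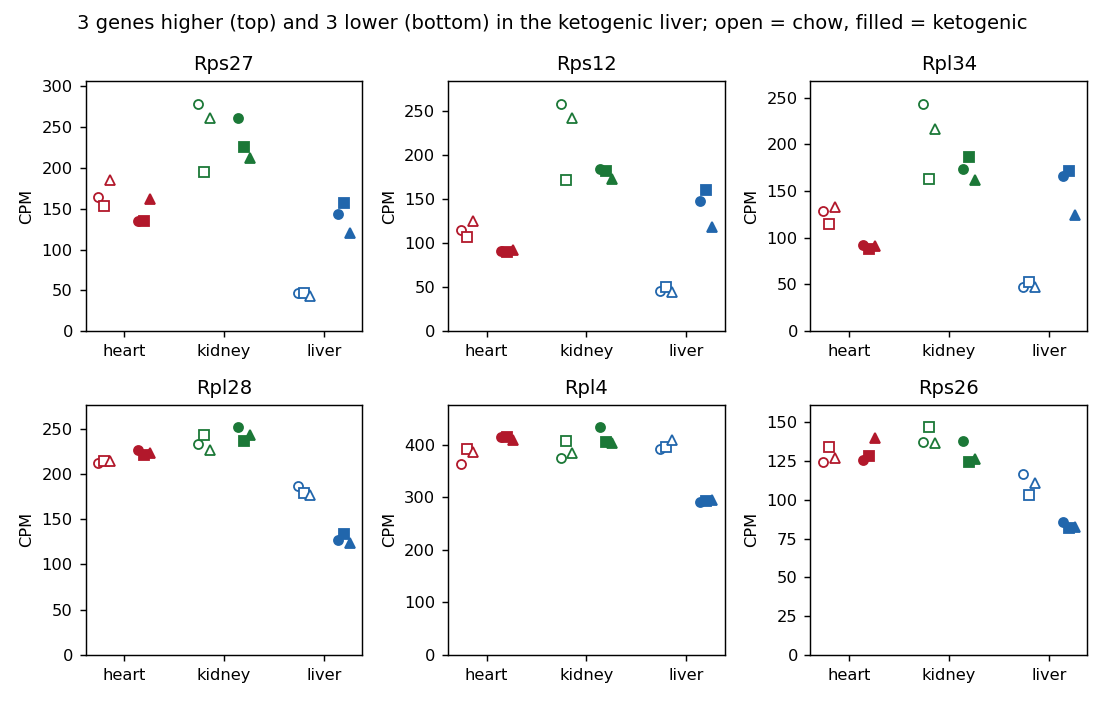
CPM of 3 genes that rose (Rps27, Rps12, Rpl34) and 3 that fell (Rpl28, Rpl4, Rps26) in the ketogenic liver, in each library of the 3 organs; open symbols are chow, filled symbols ketogenic, circles, squares and triangles replicates 1, 2 and 3, and each axis starts at 0. In the liver the diets do not overlap in any of the 6 genes, and chow livers have the lowest levels of the upper 3 among the organs.

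By role, 6 genes were listed as binding Mdm2 or tied to p53, a list that need not be complete. In the liver Rpl5, Rpl11, Rpl26, Rps7 and Rps27a rose, and Rpl23 fell. Rpl5, which with Rpl11 and the 5S ribosomal RNA forms the particle that holds Mdm2, measured 106.3, 125.9 and 109.5 CPM on chow and 304.7, 313.0 and 234.9 CPM on the ketogenic diet (log2 1.32 ± 0.12, SE). Rpl11 measured 120.8, 122.4 and 117.2 CPM on chow and 190.2, 200.2 and 154.9 CPM on the ketogenic diet (log2 0.60 ± 0.10, SE). In Rpl11 as in Rpl5 the ketogenic libraries were all higher. Rps27a, made as a fusion with ubiquitin, went from 32.5, 35.7 and 31.6 to 78.1, 120.6 and 72.8 CPM (log2 1.44 ± 0.19, SE), with ketogenic replicate 2 above its near-identical partner. Among 9 of the genes mutated in Diamond-Blackfan anaemia, an inherited failure of red cell production, 8 rose and Rps26 fell. These 9 were chosen after their values were seen and are not a full list of such genes. Their count therefore cannot describe such genes as a group. In the family 55 of 78 rose, and 24.3% of all genes did. The stalk proteins, which recruit elongation factors, moved less: Rplp0 passed (log2 0.29, adjusted p = 0.034), while Rplp1 (0.15) and Rplp2 (0.23) did not pass. Rplp0, whose diets overlapped, did not pass with the near-identical livers summed (log2 0.25, adjusted p = 0.13), without either of them, without chow replicate 2 or 3, in the model of 18 libraries or with offsets for base composition and length.

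Rpl39 (0.97), Rpl22 (0.53) and Rpl10 (0.32) rose in the liver, while Rpl36a (0.19), Rpl7 (0.11) and Rpl3 (-0.03) did not pass, nor did Rpsa (0.14). The 17 genes that did not pass ranged from Rps2 at -0.17 to Rplp2 at 0.23, and only Rps2 among them had diets that did not overlap.

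Other short genes moved the same way in the liver. Genes outside the family with 500 to 1000 bases of exon had a median log2 fold change of 0.42, and 54.5% of them were called higher; the 46 ribosomal protein genes of that length had a median of 0.71. Below 500 bases the medians were 0.56 for other genes and 0.43 for 15 ribosomal protein genes. With offsets that removed the trend over base composition and exon length seen in the other genes, chosen after the data were seen, 40 ribosomal protein genes were higher and 21 lower, with a median of 0.22, and 9 genes that had passed had the opposite sign. Of all genes 20.4% were higher and 20.9% lower in that fit. Rps27 (1.22), Rpl34 (1.25) and Rps12 (1.07) were still higher and Rpl28 (-0.91) still lower with these offsets. Within the family the change in the liver had little relation to exon length (Spearman's rho -0.18 over 78 genes) or base composition (rho -0.02), as a description over genes that share libraries. Summed markers of liver were 113000 to 121600 CPM on chow and 77140 to 80710 CPM on the ketogenic diet, with 4 of 6 lower. The adipocyte list rose from 0.503 to 0.726 CPM to 85.7 to 147 CPM through Cfd and Cidec, with Lep and Retn at 0. Proliferation markers fell in 8 of 8 genes, from 102 to 147 CPM to 6.85 to 10.95 CPM. The part of these in the result was not tested.

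**Figure D3:**
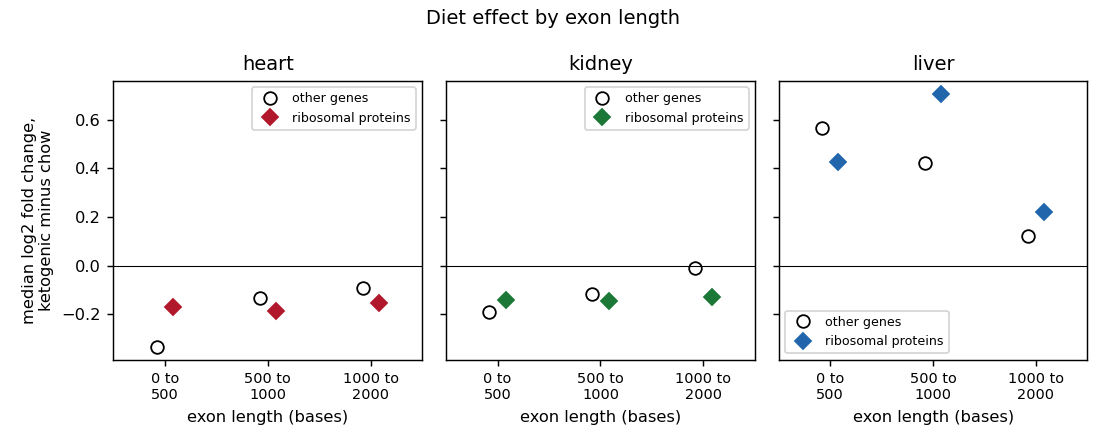
Median log2 fold change, ketogenic minus chow, of ribosomal protein genes (diamonds) and of all other tested genes (open circles) in 3 classes of exon length in bases, by organ. In the liver short genes of both kinds were higher (0.42 for other genes and 0.71 for ribosomal protein genes of 500 to 1000 bases); in the heart both kinds were lower (-0.13 and -0.19).

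In the heart the direction was the opposite. Of 79 genes tested, 27 fell, 1 rose and 51 did not pass, where 12.2% of all genes tested passed as lower and 12.5% as higher (24.7% in all). The median log2 fold change was -0.19, against -0.03 for all genes. The diets did not overlap in 53 genes that were lower and 7 that were higher (background 22.7% and 22%), and the summed level went from 16375, 15902 and 17060 CPM on chow to 14654, 14625 and 14647 CPM. The count moved with the near-identical libraries, as did calls over all genes: 14 genes fell when the pair was summed (5.81% of all genes passed as lower), 13 without ketogenic replicate 1 (5.57%) and 12 without ketogenic replicate 2 (5.64%). The median was -0.18 with the pair summed. With the pair summed and the atrial library left out together, 27 fell (14.1% of all genes) and 2 rose, Rpl3l and Rpl21 (13.8% of all genes). Without the atrial library alone 4 rose, where 17.8% of all genes did: Rpl3l, Rpl21, Rpl23a and Rps28, the last 3 named after their values were seen. Scaling to total counts moved the median of all heart genes to -0.16, that of the family to -0.32 and the number lower to 58 (22% of all genes). Under that scaling 23.4% of all genes called were higher, against 50.5% with the main scaling. With the offsets for base composition and length, 14 fell (11.7% of all genes) and 8 rose (14.1%), with a median of -0.01. Other short genes were also lower in the heart. Below 500 bases of exon 35.1% of other genes were called lower (median -0.34), against a median of -0.17 for 15 ribosomal protein genes. At 500 to 1000 bases 19.7% of other genes were (median -0.13), against a median of -0.19 for 46 ribosomal protein genes.

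The largest fall and the largest rise in the heart belonged to a protein and its muscle paralog. Rpl3 (chr15:79908211-79913836) lies near the peptidyl transferase centre, and Rpl3l (chr17:24864774-24873094), expressed in heart and skeletal muscle, takes its place in part of the ribosomes. Rpl3 measured 154.9, 159.5 and 205.1 CPM on chow and 104.2, 104.2 and 101.5 CPM on the ketogenic diet. Rpl3l measured 204.4, 189.0 and 148.5 CPM on chow and 265.1, 259.9 and 255.5 CPM on the ketogenic diet. In both genes the diets did not overlap, and the atrial chow library had the most Rpl3 and the least Rpl3l. The log2 fold change of Rpl3 was -0.75 ± 0.11 (SE, edgeR adjusted p = 0.002) and that of Rpl3l was 0.53 ± 0.11 (SE, edgeR adjusted p = 0.011). Without the atrial library they were -0.60 and 0.41, and both passed. Rpl3l did not pass without ketogenic replicate 1 (adjusted p = 0.052). It was just under the threshold with the near-identical hearts summed (edgeR adjusted p = 0.04996) and without ketogenic replicate 2 (edgeR adjusted p = 0.047). Per kilobase of exon, Rpl3l made up 52.95%, 50.3% and 38.2% of the 2 together in the chow hearts and 68.5%, 68.0% and 68.2% in the ketogenic hearts. With the offsets the changes were -0.65 and 0.60. Scaled to the family's own sum, Rpl3 fell by 0.57 and Rpl3l rose by 0.69 on the log2 scale.

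**Figure D4:**
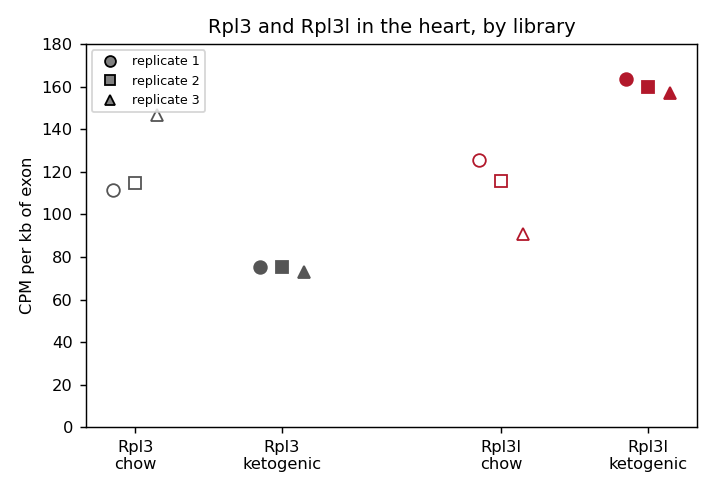
Level of Rpl3 and Rpl3l in the 6 heart libraries, as CPM per kilobase of exon on an axis from 0; open symbols are chow, filled symbols ketogenic, and shapes give replicates 1 to 3. Ketogenic hearts have less Rpl3 (73.1 to 75.3) than chow hearts (111.5 to 146.8) and more Rpl3l (157 to 164 against 90.7 to 126).

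The other falls in the heart were smaller and shared by both subunits, 15 large and 12 small. Rps18, a small-subunit protein of the head, measured 203.9, 205.2 and 218.3 CPM on chow and 148.3, 151.1 and 147.5 CPM on the ketogenic diet, a log2 fold change of -0.49 ± 0.06 (SE, edgeR adjusted p = 0.0014). Rpl41 measured 437.5, 387.4 and 425.7 CPM on chow and 266.1, 265.4 and 300.7 CPM on the ketogenic diet (log2 -0.59 ± 0.08, SE). Rpl34 measured 129.1, 114.9 and 132.9 against 92.6, 87.5 and 90.9 CPM (log2 -0.48 ± 0.07, SE), and Rpl9 214.0, 187.2 and 221.3 against 145.2, 146.4 and 145.1 CPM (log2 -0.51 ± 0.08, SE). None of the 4 overlapped between diets. Rps27l fell by 0.59 on the log2 scale, while Rps27 (-0.22, adjusted p = 0.13) did not pass. Of the 6 genes on the Mdm2 list, Rpl11 (-0.34) and Rps7 (-0.36) fell, and Rps7 did not pass without either near-identical library. Rpsa, the laminin receptor homologue, passed (-0.23, adjusted p = 0.046) and no longer passed when the near-identical hearts were summed. Rps27a overlapped: 62.4, 53.9 and 57.4 CPM on chow against 87.4, 94.3 and 45.7 CPM on the ketogenic diet (log2 0.39, adjusted p = 0.35), and it passed as higher without ketogenic replicate 3 (log2 0.65, adjusted p = 0.0056), which leaves only the near-identical pair on that diet. In the same libraries 9 of 9 erythroid markers were lower in every ketogenic heart and 7 passed (summed 4574 to 6572 CPM on chow, 1126 to 2604 CPM on the ketogenic diet), and 7 of 7 macrophage markers fell (369 to 446 against 235 to 267 CPM). Proliferation markers fell in 8 of 8 genes (51.5 to 136 against 12.4 to 22.5 CPM). Their part in the result was not tested.

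In the kidney no ribosomal protein gene passed among 79 tested, where 3.59% of all genes passed as higher and 5.45% as lower (9.05% in all). At an unadjusted p under 0.05, 1 was higher (Rpl3l) and 7 were lower by edgeR, a level at which the share of all genes was not taken. By DESeq2 2 were lower after adjustment (Rps27a and Rpl41), where 7.02% of all genes were. The diets did not overlap in 1 gene that was higher and 6 that were lower (background 15% and 16.4%). The median log2 fold change was -0.14, against 0.00 for all genes, and 73 of 79 values were negative. The summed level was 23006, 18705 and 21563 CPM on chow and 20126, 18957 and 17729 CPM on the ketogenic diet, so the groups overlapped, with chow replicate 2 apart from the other chow kidneys. Rps27a measured 184.0, 135.4 and 98.4 CPM on chow and 79.0, 82.0 and 71.2 CPM on the ketogenic diet (log2 -0.85 ± 0.22, SE, edgeR adjusted p = 0.06), and it passed without chow replicate 3 (adjusted p = 0.011). Rpl41 measured 1197, 774 and 1032 CPM on chow and 729.0, 721.5 and 729.4 CPM on the ketogenic diet (log2 -0.46 ± 0.15, SE, edgeR adjusted p = 0.092). In these 2 genes no chow kidney was below a ketogenic one. Without chow replicate 2, 4 genes were lower (Rps12, Rpl41, Rpl39 and, named after its values were seen, Rpl36), where 3.44% of all genes were. Without ketogenic replicate 1, Rpl3l was higher, from only 0.473 to 0.598 CPM per kilobase on chow, and Rpl37a, also named after its values were seen, was lower. In that fit 11.3% of all genes were higher and 11.8% lower. Scaling to total counts gave a median of -0.22 where all kidney genes had -0.09, and 25.3% of all genes called were higher, against 39.7%. The adipocyte list varied between kidneys (5.08 to 84.8 CPM on chow, 19.7 to 278 on the ketogenic diet), and proliferation markers fell from 117 to 178 to 10.6 to 39.6 CPM, with 8 of 8 lower; their part was not tested.

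The effect of the diet differed between organs in most of the family. In 1 model of all 18 libraries, 61 of 79 genes differed in their diet effect between heart and liver, 56 of them with a more negative effect in the heart (32.7% of all genes differed, 16% in that direction and 16.7% in the other). The 5 others were Rpl28, Rpl4, Rps26, Rpl29 and Rpl23, all of which fell in the liver. Of these, Rpl23 did not pass with the near-identical pairs summed, with total-count scaling or without liver ketogenic replicate 1. Rpl29 did not pass with total-count scaling. Between kidney and liver 56 differed, 52 more negative in the kidney (29.2% of all, 13% in that direction and 16.3% in the other), the 4 others being Rpl28, Rpl4, Rpl29 and Rps26. Rps26 did not pass in this contrast with the near-identical pairs summed, with total-count scaling or without liver chow replicate 1. The counts for heart and kidney against liver are from the fit without the offsets for base composition and length. With those offsets in the fits per organ, fewer genes rose in the liver and fewer fell in the heart. Between heart and kidney 1 gene differed, Rpl3, by -0.71 ± 0.14 (SE, edgeR adjusted p = 0.0068), where 5.43% of all genes did, 2.78% in that direction and 2.66% in the other. The smallest p-values for heart against liver were those of Rpl34 (-2.10 ± 0.18, SE), Rps27l (-2.07 ± 0.19, SE) and Rpl9 (-2.02 ± 0.18, SE). For kidney against liver they were those of Rps12 (-1.88 ± 0.18, SE), Rpl34 (-1.87 ± 0.18, SE) and Rps27l (-1.74 ± 0.18, SE). Rpl28 differed the other way, by 0.60 ± 0.09 (SE) for heart minus liver. No gene passed in the same direction in 3 organs, 25 were lower in the heart and higher in the liver, and 0 passed in the same direction in these 2 organs. Of the 11951 genes tested in both organs, 3.12% were lower in the heart and higher in the liver, and 6.78% passed in the same direction. Among the 25 were Rps15a, Rpl32, Rpl39, Rps14 and Rps25.

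**Figure D5:**
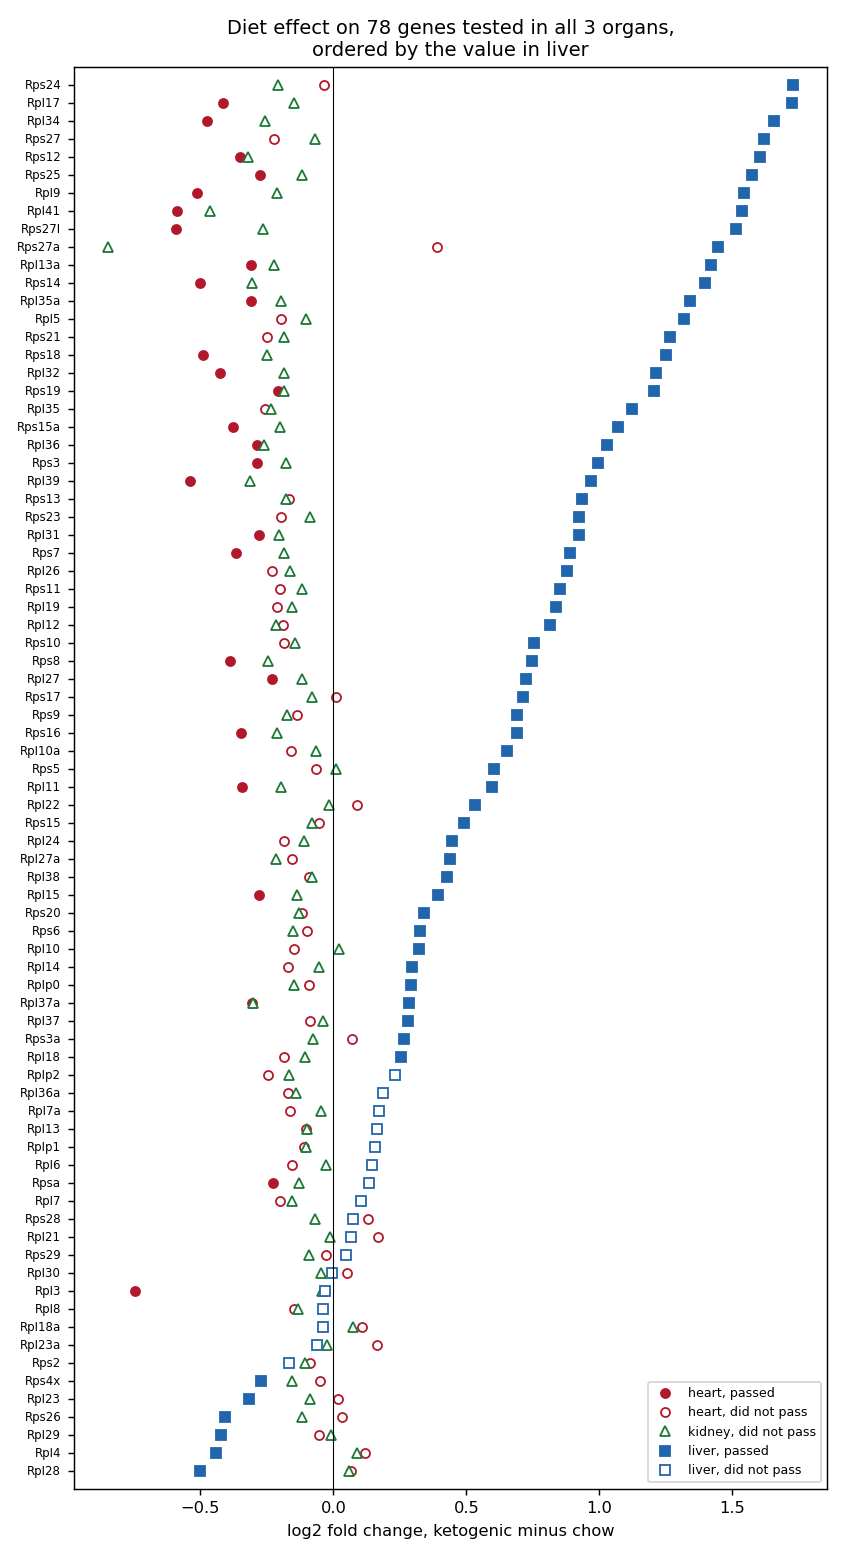
Log2 fold change, ketogenic minus chow, of the 78 genes tested in all 3 organs, ordered by the value in the liver; circles are heart, triangles kidney and squares liver, and filled symbols passed at an adjusted p under 0.05. Liver values run from -0.50 to 1.73, while heart values of the same genes lie mostly below 0 and no kidney value passed.

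Over the 78 genes the changes in heart and liver had a Spearman's rho of -0.64, those in kidney and liver -0.66 and those in heart and kidney 0.67, as a description over genes, in organs that share no library. The change in the liver had a rho of -0.73 with the difference between chow heart and chow kidney, again with no shared library. Scaled to the family's own sum in each library, an addition made after the data were seen, 29 genes rose and 28 fell relative to the rest in the liver, 10 rose and 9 fell in the heart, and Rps27a alone fell in the kidney. This scaling centres the family, so the near-equal numbers in each direction follow from it; over all genes it gave 692 higher and 8083 lower in the liver and 3551 higher and 976 lower in the heart. On that scale Rps27 (1.04) and Rpl34 (1.07) were among the higher ones in the liver, and Rpl28 (-1.07) was the lowest.

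On chow the organs held the family at different levels. Summed CPM, each scaled within its organ, was lowest in the liver (8660 to 9055 CPM) and highest in the kidney (18705 to 23006 CPM). In the 18-library model, 52 genes were higher and 7 lower in heart than in liver (78.2% of all genes differed, 40.5% higher and 37.8% lower), 45 higher and 12 lower in kidney than in liver (76.4%, 41.5% higher and 34.9% lower), and 24 higher and 20 lower in heart than in kidney (73.8%, 35.3% higher and 38.4% lower). Per kilobase of exon and averaged over the 6 groups, the highest levels were those of Rpl41, Rplp1 and Rps14. The order differed between groups: Rplp1 was above Rpl41 in chow liver (610 against 458) and in ketogenic heart (695 against 619), and Rps14 stood at 618 in chow heart and 232.5 in chow liver. Rpl41 stood at 907 ± 56.7 CPM per kilobase in chow heart (SD, n = 3), 1645 ± 335 in chow kidney (SD, n = 3) and 458 ± 71.9 in chow liver (SD, n = 3), and at 619 ± 52.7 (SD, n = 2), 1210 ± 9.81 (SD, n = 3) and 1237 ± 291 (SD, n = 2) on the ketogenic diet. Rplp1 was steadier across the 6 groups, from 566 ± 38.4 in ketogenic kidney (SD, n = 3) to 747 ± 36.0 in chow heart (SD, n = 3). Rpl3l was 90.7 to 126 CPM per kilobase in chow heart, 0.473 to 0.598 in chow kidney and at most 0.117 in chow liver, where it was too low to test. The paralogs Rpl10l, which is expressed in testis, and Rpl39l had 0 and 10 counts over the 18 libraries and were not tested.

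Lists of related genes were read against all genes tested. As higher and as lower, 24.3% and 23.3% of all genes passed in the liver, 12.5% and 12.2% in the heart, and 3.59% and 5.45% in the kidney. The mitochondrial ribosomal proteins, made from nuclear genes for the organelle's own ribosome, also shifted upward in the liver: 52 of 76 rose (median 0.41) and 3 fell, which were Mrps2, Mrps5 and Mrpl4, named after their values were seen. Among those that rose, Mrpl53 went from 19.1, 17.9 and 15.3 to 50.2, 49.4 and 42.2 CPM. In the heart 6 of 76 fell and 0 rose, both below the shares of all genes. In the kidney 0 fell and Mrps18b rose, also below those shares. Translation factors and other genes with pyrimidine-run mRNAs rose in 16 of 26 cases and fell in 6 in the liver (median 0.43), among them Eif4a2 (1.24) and Naca (0.89), and Fau (0.85), which encodes a ribosomal protein fused to a ubiquitin-like one. In the heart 6 rose, among them Naca (0.63), Eif4b (0.53) and Eef2 (0.45), and 5 fell: Pabpc1 (-0.55), Fau (-0.37) and, named after their values were seen, Eef1a1, Btf3 and Gnb2l1. In the kidney 0 of 26 passed at an adjusted p, and at an unadjusted p under 0.05 2 were higher and 0 lower by edgeR. The share of all genes at that unadjusted level was not taken. Among factors that assemble ribosomes, 10 of 51 rose in the liver, among them Taf1d (0.94) and Nip7 (0.83), and 8 fell, among them Ncl (-0.62) and Rrp1 (-0.71), both below the shares of all genes (24.3% and 23.3%). In the heart 6 rose, near the 12.5% of all genes, Ncl (0.33) and Nop14 (0.42) among them, and 3 fell: Polr1d (-0.37), Nip7 (-0.33) and, named after its values were seen, Polr1e. In the kidney Utp20 (0.40) rose and 0 fell. Outside the naming rule of the family, the paralog Rpl22l1 rose in the liver (0.85) and fell in the heart (-0.85), while its partner Rpl22 rose in the liver (0.53) and had 0.09 in the heart, not passing.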

How the data were processed

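mRNA libraries were made with a stranded kit, per the labels' protocols. The submitters' processing notes name HISAT2 2.1.0 and featureCounts 1.5.0, beside bcl2fastq and SAMtools. Per the file headers, read pairs were counted over exons of the UCSC annotation of mm9 using strand option 2 and mapping quality of at least 2, and reads of several places or genes were counted in fractions. So the deposited files hold estimated counts that need not be whole, and these were rounded to whole numbers before testing. Each organ was tested with edgeR 4.0.16 in R 4.3.3 (robust quasi-likelihood test, filterByExpr, TMM scaling, Benjamini-Hochberg adjustment over all genes tested). Genes with an adjusted p below 0.05 passed, and "rose" and "fell" are ketogenic against chow. Differences between organs were contrasts in 1 model of 18 libraries. Alternatives were DESeq2 1.42.0, limma-voom (limma 3.58.1), RLE, total-count and member-free TMM scaling, no filter, a filter of CPM 1 in 3 libraries, an adjusted p under 0.1, a replicate block, all libraries in 1 model, summed near-identical libraries and leaving out each library. The offsets, the family's own scaling and the joint omission in the heart were added after the data were seen. Genes named are the fixed paralogs, Mdm2-binding, stalk and Rpsa genes, up to 5 members each way per organ by smallest adjusted p, 3 per pair of organs by smallest p of the difference, up to 10 in opposite directions, up to 4 per list and organ, and the 3 most abundant per length. Other members named, and the Diamond-Blackfan group, were chosen after their values were seen. The members and lists were chosen with earlier results of these data known. The steps were tested on simulated data, in which the share of false calls in the fits per organ was above the level set by the adjusted p, so single calls near the threshold are less certain than their adjusted p.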

Additional observations from a re-analysis of the deposited data

Results flagged for a closer look

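Differences between organs in the effect of the diet, each tested as a contrast in the model of 18 libraries, were singled out as follows. Between heart and kidney 1 gene of the family differed, Rpl3, with -0.71 on the log2 scale. Between heart and liver 61 genes differed, and the smallest p-values belonged to Rpl34 (-2.10), Rps27l (-2.07) and Rpl9 (-2.02). Between kidney and liver 56 genes differed, and the smallest p-values belonged to Rps12 (-1.88), Rpl34 (-1.87) and Rps27l (-1.74). No group had the 4 libraries needed to look for a single outlying library.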

How the results depend on the processing

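In the liver the number higher was 40 with the base composition and length offsets and 51 to 60 in the other alternatives, leaving out 1 library included; the number lower was 21 with the offsets and 5 to 6 in the others, and the median was 0.22 with the offsets. There Rpl10, which had passed as higher, had -0.11 (adjusted p = 0.25). In the heart the number lower was 58 with total-count scaling, 14 with ketogenic replicates 1 and 2 summed, 17 in 1 model of 18 libraries, 14 with the offsets and 12 to 35 on leaving out 1 library. The number higher was 2 at an adjusted p under 0.1 (Rpl3l and Rpl23a), 8 with the offsets, 2 with the pair summed and chow replicate 3 left out, and 0 to 4 on leaving out 1 library. The heart median was -0.32 with total-count scaling and -0.0074 with the offsets. In the kidney the number lower was 2 with DESeq2, 1 with limma-voom, 2 with total-count scaling and 2 at an adjusted p under 0.1 (each Rps27a, with Rpl41 where 2). Of all kidney genes 7.02%, 5.37%, 7.83% and 8.97% were lower in these settings, in the same order. On leaving out 1 library the number lower was 0 to 4 and the number higher 0 to 1. Between heart and kidney 3 genes differed with the offsets (Rpl3, Rps27a and Rpl23a) and 1 to 2 on leaving out 1 library (Rps27a joined Rpl3). The cause was not tested. Same-numbered libraries correlated by 0.03 to 0.11 in the heart, -0.14 to 0.05 in the kidney and 0.03 to 0.10 in the liver. The highest value was that of the 2 libraries numbered 3 in the heart (0.106) and the liver (0.096), but not in the kidney. Since each group has 3 libraries, some near-identical, these values cannot show whether equal numbers pair them. Equal numbers were not compared across organs. With the replicate block 21 genes were lower in the heart, 1 (Rps27a) in the kidney and 6 in the liver, and 55 were higher in the liver. Among single named genes 574 values in the heart, 548 in the kidney and 561 in the liver kept direction and call, 29, 0 and 8 lost the call, 24, 13 and 6 gained one, and 1 in the liver reversed. Leaving out ketogenic replicate 3 of heart or liver leaves the near-identical pair alone on that diet. Fractional counts of similar genes, 3 libraries a group and the near-identical pairs limit precision.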

Other observations

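Genes that control ribosomal protein synthesis and genes of the p53 response were also measured. In the liver 4 of 24 control genes rose (Rheb, Mycn, Mtor and Sesn1, the last named after its values were seen) and 10 fell (median -0.19; 24.3% and 23.3% of all genes did), among them Larp1, which binds the pyrimidine run at the cap, from 336.1, 275.2 and 314.1 to 158.2, 159.6 and 198.1 CPM (log2 -0.84), and Tsc2, an inhibitor of mTOR signalling (-0.47); Rheb, which activates mTOR, had 0.64. In the heart 7 of 24 rose, among them Mtor (0.40), Tsc1 (0.34) and Tsc2 (0.44), and Ddit4, an inhibitor of mTOR signalling, fell (-0.80). Of all heart genes 12.5% rose and 12.2% fell. In the kidney Mycn fell (-0.87) and 0 rose, where 5.45% of all genes fell and 3.59% rose. Of 9 genes tested on the p53 list, Mdm2 (0.41) and Ccng1 (0.57) rose in the liver and 4 fell: Cdkn1a (-2.52), Bbc3 (-1.69), Trp53 (-0.95) and, named after its values were seen, Sesn2 (-0.49). Cdkn1a, a cell cycle inhibitor, also fell in the heart (-1.36) and the kidney (-1.11), and Bax fell in both (-0.62 and -0.52). The third to fall was Trp53 in the heart (-0.78) and Ccng1 in the kidney (-0.39). So 3 of 9 fell and 0 rose in each, where 12.2% of all genes fell in the heart and 5.45% in the kidney.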
